A study of Mus musculus with 16 samples.

Results

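10 genes for glutathione S-transferases (GSTs) of the alpha, pi, theta and zeta classes were followed in mouse liver after emodin: Gsta1, Gsta2, Gsta3, Gsta4, Gstp1, Gstp2, Gstt1, Gstt2, Gstt3 and Gstz1. They were picked by gene symbol from the 27446 entries of the expression table, and all 10 were found and passed the filter on low counts. The samples were livers of wild-type C57BL/6 mice. In the emodin group, 8 livers came from mice that received emodin, an anthraquinone of rhubarb and related plants, by gavage at 400 mg/kg over 3 weeks, in sodium carboxymethyl cellulose (0.5%). In the vehicle group, 8 livers came from mice given that carrier alone. All mice had 7 days to acclimate, and the labels give neither their age nor their sex. Whether the libraries stand for separate animals is not in the labels, so p-values measure the spread between libraries, which may be technical.

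GSTs join the tripeptide glutathione to reactive, mostly fat-soluble compounds, which are then trimmed to mercapturates and leave the cell through export pumps. Hepatocytes hold large amounts of these enzymes in the cytosol. Several alpha and pi genes are textbook targets of the stress-responsive factor NRF2 and of the xenobiotic receptors AhR, CAR and PXR. Theta enzymes act on small halogenated molecules and organic peroxides, and the zeta enzyme is a step of tyrosine breakdown.

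The libraries held 28.3 to 48.2 M estimated counts in the emodin group and 28.7 to 38.6 M in the vehicle group (M, mega). Levels below are CPM, estimated counts relative to the library total after TMM scaling, which evens out library composition. Emodin livers 4 and 8 stood apart, with the largest scaling factors of all 16 libraries (1.13 and 1.16) and the lowest array weights (0.376 and 0.276), a measure of how closely a library follows the fit. For 9 of the 10 GST genes the lowest emodin value was that of liver 4 or liver 8, and for Gsta1 the highest was that of liver 8. Values without both are given beside the results that they move most. Hepatocyte markers were abundant in every library: their summed level over 12 genes was 69490 to 124400 CPM in emodin livers and 115900 to 146600 CPM in vehicle livers. Albumin mRNA (Alb), the most abundant of them, averaged 59540 ± 13440 CPM in emodin livers and 84490 ± 9773 CPM in vehicle livers (SD, n = 8 each, as in all means below). It was called lower (log2 fold change -0.50, edgeR adjusted p = 0.0309, and 0.0432 without emodin livers 4 and 8), the single call among the 12; the call ended without emodin liver 2 or 5 or vehicle liver 3, 4, 5 or 8 (adjusted p up to 0.0664). Messages of 4 Y-linked genes were tested and 0 were called by edgeR (0 at an unadjusted p under 0.05); Ddx3y lay between 57.4 and 92.5 CPM in emodin livers and between 61.7 and 85.7 CPM in vehicle livers.

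Of the 10 GST mRNAs, Gstt1 fell with emodin and no other passed the test in either direction. By edgeR's quasi-likelihood F test, adjusted after Benjamini and Hochberg over 14308 entries, 0 members were called higher and 1 lower, where 7.7% of all tested entries were called higher and 5.47% lower (13.2% in either direction). A count of 1 in 10 is close to those shares. At an unadjusted p under 0.05 there were 3 higher (Gsta1, Gstp1 and Gstp2) and 3 lower (Gstt1, Gsta2 and Gstt3), and DESeq2 called 2 higher (Gsta1 and Gstp2) and 2 lower (Gstt1 and Gsta2). The edgeR shares above do not apply to these counts. Over all 14308 entries DESeq2 called 1413 higher and 1119 lower, more than edgeR in both directions. The share of all entries at an unadjusted p under 0.05 is not given here. The median log2 fold change of the 10, emodin over vehicle, was -0.23, against 0.01 over all tested entries, with 7 of the 10 below 0. Leaving out emodin livers 4 and 8 moved these 7 upward. They became -0.49 (Gsta2), -0.09 (Gsta3), -0.13 (Gsta4), -0.33 (Gstt1), -0.04 (Gstt2), -0.43 (Gstt3) and 0.07 (Gstz1). Gsta1 (0.77), Gstp1 (0.64) and Gstp2 (0.75) stayed above 0. Over all entries the balance of calls moved with scaling, from 1102 higher and 782 lower to 790 and 996 with quantile normalization and 897 and 950 with upper quartile factors. RNA was taken from whole liver, so fewer cells of a type and less RNA per cell cannot be told apart in any of these values.

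**Figure D1:**
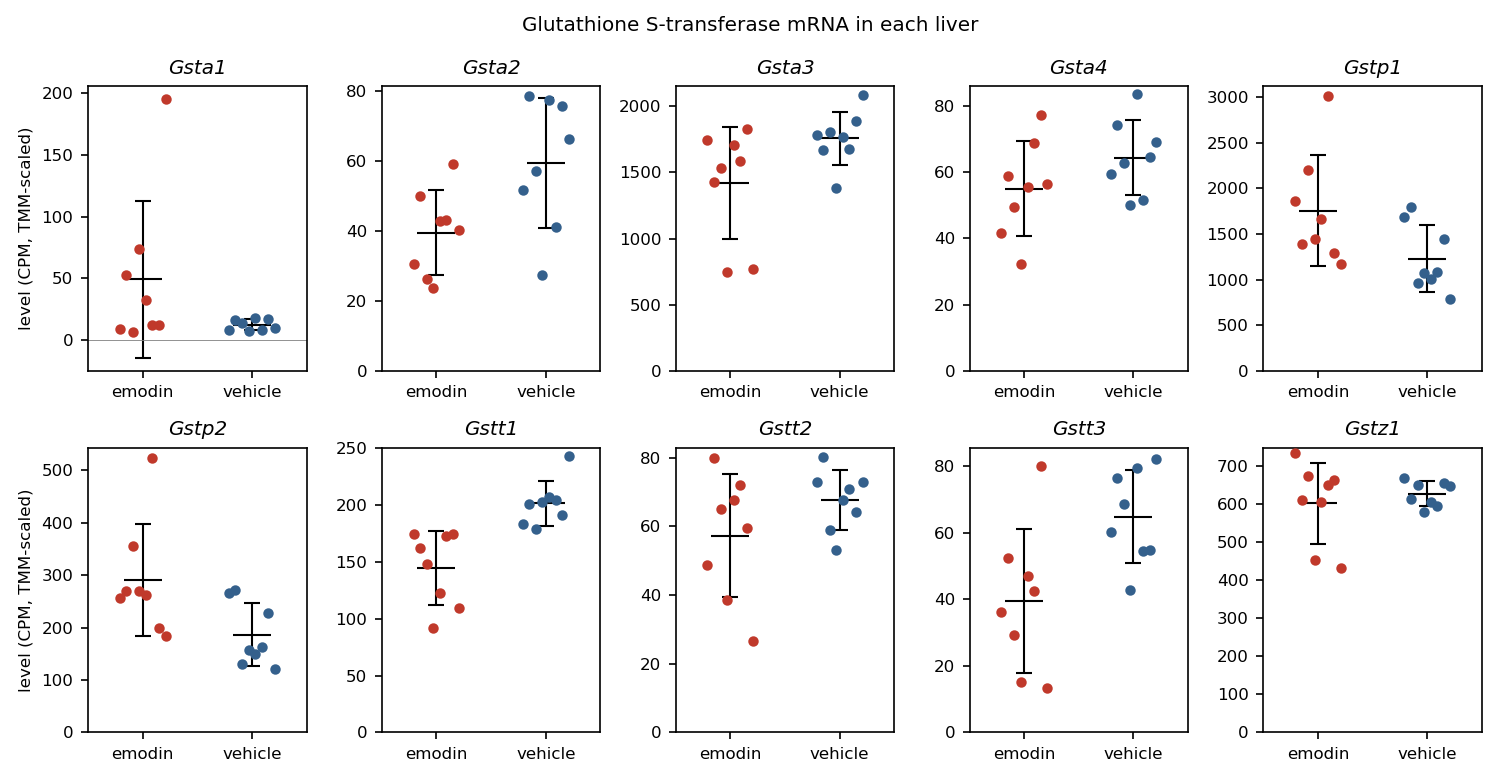
Level of each GST mRNA in each liver (vertical axis, TMM-scaled CPM, each panel with its own range) in the emodin group (red, left) and the vehicle group (blue, right); every point is a liver, the horizontal bar is the mean and the whiskers are 1 SD (n = 8 each). The 8 emodin livers all lie below the 8 vehicle livers for Gstt1, while Gsta1 spreads from 6.52 to 195.5 CPM in emodin livers against 7.30 to 17.5 CPM in vehicle livers.

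Among the alpha class, Gsta1 had the widest spread of all 10 genes, with a coefficient of variation of 129.9% in emodin livers and 35.7% in vehicle livers. Gsta1 (chromosome 9, 78230656 to 78242684, forward strand, mm10) encodes a transferase of low basal abundance in mouse liver that electrophiles induce. Its level was 6.52, 22.2 and 195.5 CPM in emodin livers (lowest, median, highest), against 7.30, 11.4 and 17.5 CPM in vehicle livers. Emodin livers 2, 4, 5 and 8 lay above every vehicle liver, at 52.8, 73.6, 32.3 and 195.5 CPM, and emodin liver 3 lay below every vehicle liver. The means were 49.2 ± 63.9 CPM with emodin and 12.2 ± 4.37 CPM with vehicle, a log2 fold change of 2.01 ± 0.65 (SE), which missed the threshold (edgeR adjusted p = 0.0532). Without emodin liver 8 the log2 fold change was 1.21 (adjusted p = 0.131), without emodin livers 4 and 8 it was 0.77 (adjusted p = 0.313), and with array weights it was 0.38 (limma adjusted p = 0.657); quantile normalization gave 1.16 and limma-voom 1.17. The rank-sum test did not call it (adjusted p = 0.505), nor did edgeR with a replicate block (1.07, adjusted p = 0.32). Conversely, DESeq2 called the difference (log2 fold change 2.00, adjusted p = 0.0105), and so did edgeR when emodin liver 1, 3, 6 or 7 was left out (adjusted p 0.0301 to 0.0415). Those are the emodin livers with the lowest Gsta1 levels, so leaving any of them out raises the difference by construction.

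Gsta2, the closest paralogue of Gsta1 in the set, lay on the same chromosome (78331018 to 78355788, reverse strand) and had the opposite sign. Its level was 23.8, 41.5 and 59.2 CPM in emodin livers (lowest, median, highest), against 27.5, 61.9 and 78.7 CPM in vehicle livers, so the groups overlapped, although all 8 emodin livers lay below the vehicle mean. The means were 39.5 ± 12.1 CPM with emodin and 59.6 ± 18.6 CPM with vehicle (log2 fold change -0.59 ± 0.22, edgeR adjusted p = 0.0881). DESeq2 called it lower (adjusted p = 0.0407), as did edgeR without vehicle liver 4 (adjusted p = 0.0327) or without emodin liver 7 (adjusted p = 0.0439). Those are the lowest vehicle and the highest emodin liver for Gsta2, so each omission widens the difference by construction.

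The balance between both genes differed over all 16 livers, with a call that did not hold without single vehicle livers. The mean log2 ratio of Gsta1 to Gsta2 was -0.55 ± 1.76 in emodin livers and -2.29 ± 0.30 in vehicle livers, a difference of 1.73, or 3.32-fold (exact two-sided permutation test over 12870 assignments, p = 0.00389, adjusted over 10 within-class ratios 0.0389). Of the 8 emodin livers, 6 lay above the highest vehicle liver. As a share of the summed pair, Gsta1 made up 17.0%, 32.4% and 82.9% in emodin livers (lowest, median, highest), against 12.3%, 17.8% and 21.0% in vehicle livers. This call ended without any 1 of the vehicle livers (difference 1.66 to 1.79, adjusted p 0.0601 to 0.156) and without emodin livers 4 and 8 (0.90, adjusted p = 0.0833), by the same exact permutation test.

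Reads of Gsta1 cannot all be placed on it alone. Of the 100-base windows of its transcripts, 81.8% also occur in another gene, and 71.3% in Gm3776, a neighbouring alpha-class copy 14445 bases away. For Gsta2 the share was 35.0%. The longest coding transcripts of Gsta1 and Gsta2 matched at 97.2% of 870 aligned bases. How the submitters' counting treated such reads is not stated in the sources used here. Gm3776 itself was called higher, at 35.5 ± 46.3 CPM in emodin livers and 6.93 ± 3.21 CPM in vehicle livers (log2 fold change 2.36 ± 0.69, edgeR adjusted p = 0.0358). That call rested on few livers: without emodin liver 8 the emodin mean was 20.4 ± 18.9 CPM and the log2 fold change 1.56 (adjusted p = 0.0804), and without emodin livers 4 and 8 it was 1.11 (adjusted p = 0.187). It also ended without emodin liver 2 or 4 or vehicle liver 1, 3, 4, 5, 6 or 8, and in 6 of the alternative settings. The entry that the table names Gsta5, called Gm10639 in the annotation, averaged 4.32 ± 6.20 CPM with emodin and 1.82 ± 0.88 CPM with vehicle (log2 fold change 1.25, edgeR adjusted p = 0.177). Merged into a single entry, Gsta1, Gsta5 and Gm3776 averaged 89.0 ± 117 CPM in emodin livers and 21.0 ± 8.10 CPM in vehicle livers (log2 fold change 2.09 ± 0.66, edgeR adjusted p = 0.0478), a merge chosen after the shared windows were counted. Without emodin liver 8 the merged value was 1.28 (adjusted p = 0.117) and without emodin livers 4 and 8 it was 0.85 (adjusted p = 0.275); its call held only without emodin liver 1, 3, 6 or 7. With Gsta2 added to that merge the log2 fold change was 0.67 (adjusted p = 0.303), and for Gsta1 and Gsta2 alone it was 0.31 (adjusted p = 0.597).

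**Figure D2:**
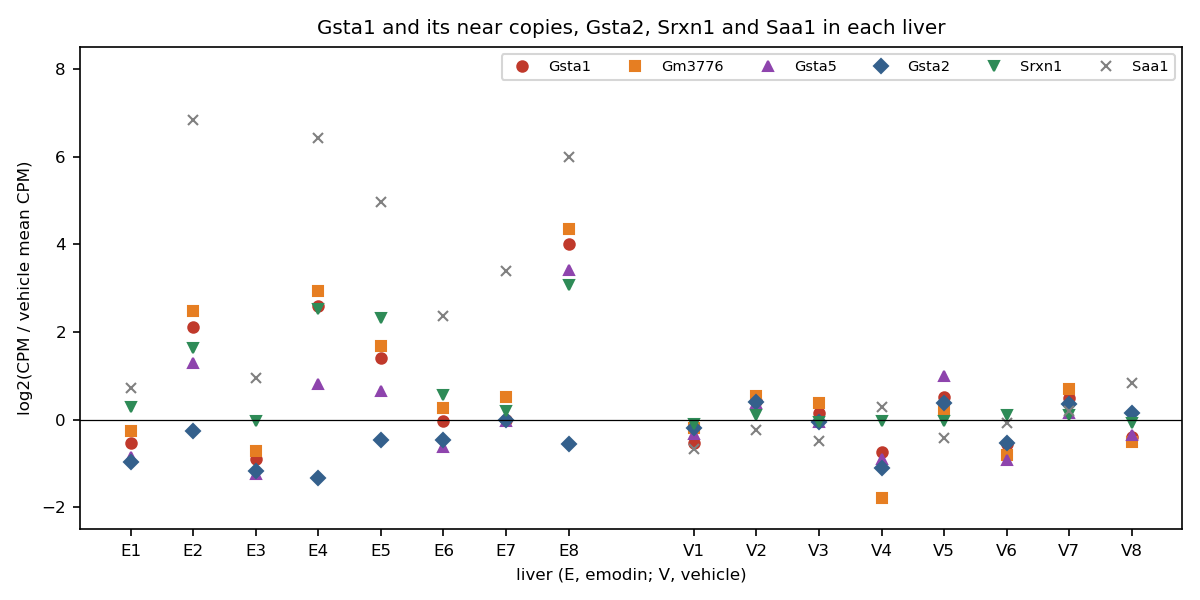
Level of Gsta1, its near copies Gm3776 and Gsta5, Gsta2, the sulfiredoxin gene Srxn1 and the acute phase gene Saa1 in each liver, as log2 of the CPM over the mean CPM of the vehicle livers (vertical axis); E1 to E8 are emodin livers and V1 to V8 vehicle livers. Gsta1, Gm3776 and Srxn1 stand highest in emodin livers 2, 4, 5 and 8, whereas Gsta2 is at or below the vehicle mean in all 8 emodin livers.

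The promoter windows of both genes are shown because the genes are near-identical and yet had log2 fold changes of opposite sign. Neither of these was called by edgeR. Each window spans 250 bases before to 50 bases after the RefSeq transcription start (RefSeq, GRCm38.p6), written 5′ to 3′, with the xenobiotic response element core GCGTG in capitals.
Gsta1 (chr9:78230419-78230718, forward strand): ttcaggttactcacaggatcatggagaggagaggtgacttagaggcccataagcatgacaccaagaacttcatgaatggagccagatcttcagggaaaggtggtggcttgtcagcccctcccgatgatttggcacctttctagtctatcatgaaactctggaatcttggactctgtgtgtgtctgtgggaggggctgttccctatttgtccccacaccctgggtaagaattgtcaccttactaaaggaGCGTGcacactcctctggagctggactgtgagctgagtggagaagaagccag
Gsta2 (chr9:78347096-78347395, reverse strand): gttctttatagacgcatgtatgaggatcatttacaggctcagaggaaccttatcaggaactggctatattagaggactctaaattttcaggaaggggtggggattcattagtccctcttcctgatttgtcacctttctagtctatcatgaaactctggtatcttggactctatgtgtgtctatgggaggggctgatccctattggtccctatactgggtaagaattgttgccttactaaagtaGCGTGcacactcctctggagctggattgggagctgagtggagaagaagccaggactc
Aligned, these windows matched at 80.3% of 289 bases, and GCGTG was found in each, at bases 249 and 244 of the window. Of 32851 promoter windows of this length, 32.4% hold GCGTG on either strand. TTCNNNGAA, a STAT element that 8.3% of all windows hold, was found in the Gsta1 window at base 89, and TATAAA, which 13.6% hold, was found in the Gsta2 window. TGACNNNGC, the core of the antioxidant response element (12.4% of all windows), was found in neither. Of the 8 members with a window, Gsta3 had it, and other forms of this element were not searched. The RefSeq start of Gsta2 lies inside the annotated gene, downstream of its first base. These are letter matches and say nothing on whether a factor binds.

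Gsta3 and Gsta4 complete the alpha class. Gsta3 (chromosome 1, 21240589 to 21265661, forward strand), the abundant alpha transferase of mouse liver known for detoxifying the aflatoxin epoxide, had 749, 1563 and 1829 CPM in emodin livers (lowest, median, highest), against 1380, 1776 and 2087 CPM in vehicle livers. Only emodin livers 4 and 8 lay below the vehicle range. This gene overlaps Gm28836. The log2 fold change was -0.31 ± 0.17 (edgeR adjusted p = 0.249) and -0.09 without these livers (adjusted p = 0.542), while quantile normalization called it lower (-0.47, limma adjusted p = 0.0383). Gsta4 (chromosome 9, 78182774 to 78209349, forward strand), which conjugates the lipid peroxidation product hydroxynonenal, had 32.3, 56.1 and 77.4 CPM in emodin livers and 50.03, 63.7 and 83.5 CPM in vehicle livers. Here 3 emodin livers lay below the vehicle range, and the log2 fold change was -0.23 ± 0.15 (edgeR adjusted p = 0.334).

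Both pi genes had higher means in emodin livers, and neither passed the test. Gstp1 (chromosome 19, 4035407 to 4037985, reverse strand) and Gstp2 (4040285 to 4046023, reverse strand) encode near-identical transferases whose combined protein is abundant in the liver of male mice. Gstp1 had 1167, 1551 and 3009 CPM in emodin livers (lowest, median, highest), against 786, 1073 and 1800 CPM in vehicle livers, with 3 emodin livers above every vehicle liver. Its means were 1753 ± 608 CPM with emodin and 1229 ± 368 CPM with vehicle (log2 fold change 0.51 ± 0.21, edgeR adjusted p = 0.109). Gstp2 had 185, 266 and 524 CPM in emodin livers and 121, 160 and 272 CPM in vehicle livers, with 2 emodin livers above every vehicle liver. The Gstp2 means were 291 ± 107 CPM with emodin and 186 ± 60.4 CPM with vehicle (log2 fold change 0.64 ± 0.22, edgeR adjusted p = 0.0621). For both genes 7 emodin livers exceeded the mean of the vehicle group, and emodin liver 6 was the highest and emodin liver 8 the lowest of the emodin group.

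Leaving out emodin livers 4 and 8 raised these values: the log2 fold change was 0.64 for Gstp1 (edgeR adjusted p = 0.0762) and 0.75 for Gstp2 (adjusted p = 0.0612). For both genes these livers lay below the emodin mean, so leaving them out raises the difference by construction. Gstp2 was called higher by DESeq2 (adjusted p = 0.0252), with quantile normalization (limma adjusted p = 0.0433), with array weights (adjusted p = 0.028) and without emodin liver 7 or 8 or vehicle liver 1 or 2 (edgeR adjusted p 0.0402 to 0.0453). The livers left out there were the lowest emodin and the highest vehicle livers for Gstp2, so each omission raises the difference by construction. Gstp1 was called with array weights alone (log2 fold change 0.69, limma adjusted p = 0.0326). The transcripts of this pair matched at 95.7% of 786 aligned bases, and 52.8% of the 100-base windows of Gstp1 also occur in Gstp2, so the split of reads between them is uncertain. Merged, the pair averaged 2043 ± 712 CPM in emodin livers and 1415 ± 427 CPM in vehicle livers (log2 fold change 0.53 ± 0.21, edgeR adjusted p = 0.0998). Gstp2 supplied 12.1%, 13.8% and 16.3% of that sum in emodin livers (lowest, median, highest) and 11.9%, 13.2% and 13.7% in vehicle livers; the log2 ratio of Gstp1 to Gstp2 differed by -0.13 (exact permutation p = 0.0532, adjusted 0.117). The third pi gene, Gstp3, averaged 11.5 ± 2.88 CPM with emodin and 11.5 ± 1.69 CPM with vehicle.

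The promoter windows of the pi pair are given because these genes moved together from liver to liver. TGAGTCA, an element bound by AP-1 factors, and GCGTG are in capitals (RefSeq, GRCm38.p6, 5′ to 3′).
Gstp1 (chr19:4037863-4038162, reverse strand): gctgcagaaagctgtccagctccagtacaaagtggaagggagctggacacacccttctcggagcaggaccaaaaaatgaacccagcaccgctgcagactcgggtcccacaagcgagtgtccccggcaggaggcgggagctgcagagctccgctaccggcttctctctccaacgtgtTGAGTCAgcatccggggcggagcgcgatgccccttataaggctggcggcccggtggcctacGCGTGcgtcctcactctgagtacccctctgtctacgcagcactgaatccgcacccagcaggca
Gstp2 (chr19:4042172-4042471, reverse strand): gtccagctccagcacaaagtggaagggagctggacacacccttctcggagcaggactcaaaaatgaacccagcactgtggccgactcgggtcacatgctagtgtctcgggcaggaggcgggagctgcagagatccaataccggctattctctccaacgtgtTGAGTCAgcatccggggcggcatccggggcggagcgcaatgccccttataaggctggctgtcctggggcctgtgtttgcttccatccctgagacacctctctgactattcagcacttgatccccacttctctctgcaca
TGAGTCA begins at base 177 of the Gstp1 window and at base 162 of the Gstp2 window, and 5.2% of all promoter windows hold it. Among the 8 members with a window, these were the 2 that hold it. Whether AP-1 factors, NRF2 or others bind there was not tested. GCGTG was found in the Gstp1 window and not in the Gstp2 window, and the GC box GGGCGG, which 35.7% of all windows hold, was found in both. Aligned, the windows matched at 86.2% of 282 bases.

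The theta genes gave the single call. Gstt1 (chromosome 10, 75783813 to 75798584, reverse strand), which dehalogenates small molecules such as dichloromethane, had 91.7, 155 and 174 CPM in emodin livers (lowest, median, highest), against 179, 202 and 243 CPM in vehicle livers. All 8 emodin livers lay below all 8 vehicle livers, a pattern shown by 1.03% of the tested entries (0.937% had the reverse pattern, 1.97% either). The means were 144 ± 32.6 CPM with emodin and 202 ± 19.6 CPM with vehicle, 1.40-fold lower (log2 fold change -0.48 ± 0.13, edgeR adjusted p = 0.0198). The call held in all 30 alternative settings and single-liver omissions, with adjusted p between 0.00354 and 0.0478, and without emodin livers 4 and 8 (log2 fold change -0.33, edgeR adjusted p = 0.0262). With total counts in place of TMM scaling the groups overlapped. Of its 100-base windows, 0% occur in another annotated gene.

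Gstt3 (75774115 to 75781414, reverse strand) and Gstt2 (75831114 to 75837424, reverse strand) sit in the same cluster, around Gstt1. Gstt3 had 13.4, 39.4 and 80.1 CPM in emodin livers (lowest, median, highest), against 42.7, 64.5 and 82.3 CPM in vehicle livers. It lay below the vehicle range in 5 emodin livers, while emodin liver 7 was near the top of it. The log2 fold change was -0.72 ± 0.30 (edgeR adjusted p = 0.123), -0.94 without emodin liver 7 (adjusted p = 0.0297) and -0.43 without emodin livers 4 and 8 (adjusted p = 0.208). Gm20441, which overlaps Gstt3 and shares 23.9% of its 100-base windows, was listed at 0 in all 16 livers. Gstt2 had 26.6, 62.3 and 79.8 CPM in emodin livers and 53.0, 69.2 and 80.3 CPM in vehicle livers, and the groups overlapped (log2 fold change -0.24 ± 0.18, edgeR adjusted p = 0.381; -0.04 without emodin livers 4 and 8). The log2 ratio of Gstt2 to Gstt3 was 0.67 ± 0.55 in emodin livers and 0.08 ± 0.25 in vehicle livers, a difference of 0.59 seen in 7 of 8 emodin livers (exact permutation p = 0.0162, adjusted 0.0808).

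The Gstt1 window is shown as that of the called gene (RefSeq, GRCm38.p6, 5′ to 3′). It holds none of the motifs written in capitals above.
Gstt1 (chr10:75797682-75797981, reverse strand): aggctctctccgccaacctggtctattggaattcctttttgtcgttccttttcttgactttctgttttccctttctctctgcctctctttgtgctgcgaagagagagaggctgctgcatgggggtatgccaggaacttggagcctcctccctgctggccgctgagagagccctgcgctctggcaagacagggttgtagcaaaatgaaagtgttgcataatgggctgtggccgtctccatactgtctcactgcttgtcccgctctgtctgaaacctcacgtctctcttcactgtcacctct
Of the 7 motifs searched, CCAAT was found in it, at base 25 on the opposite strand, as in 37.4% of all windows.

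The zeta gene had the smallest difference of the 10. Gstz1 (chromosome 12, 87147165 to 87164723, forward strand) encodes maleylacetoacetate isomerase, the next-to-last enzyme of tyrosine breakdown, which also metabolises dichloroacetate. The gene overlaps Pomt2 and Gm6566, and whether the counting used strand is not stated in the sources used here. It had 432, 632 and 735 CPM in emodin livers (lowest, median, highest), against 580, 631 and 669 CPM in vehicle livers. The means were 603 ± 107 CPM with emodin and 628 ± 32.7 CPM with vehicle (log2 fold change -0.06 ± 0.10, edgeR adjusted p = 0.756), and the sign turned without emodin liver 8 (0.001), without emodin livers 4 and 8 (0.07) and with array weights (0.03). The spread was wider with emodin, with a coefficient of variation of 17.7%, against 5.21% with vehicle, a difference that was not tested. Emodin livers 4 and 8 lay below the vehicle range and emodin livers 1 and 3 above it.

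**Figure D3:**
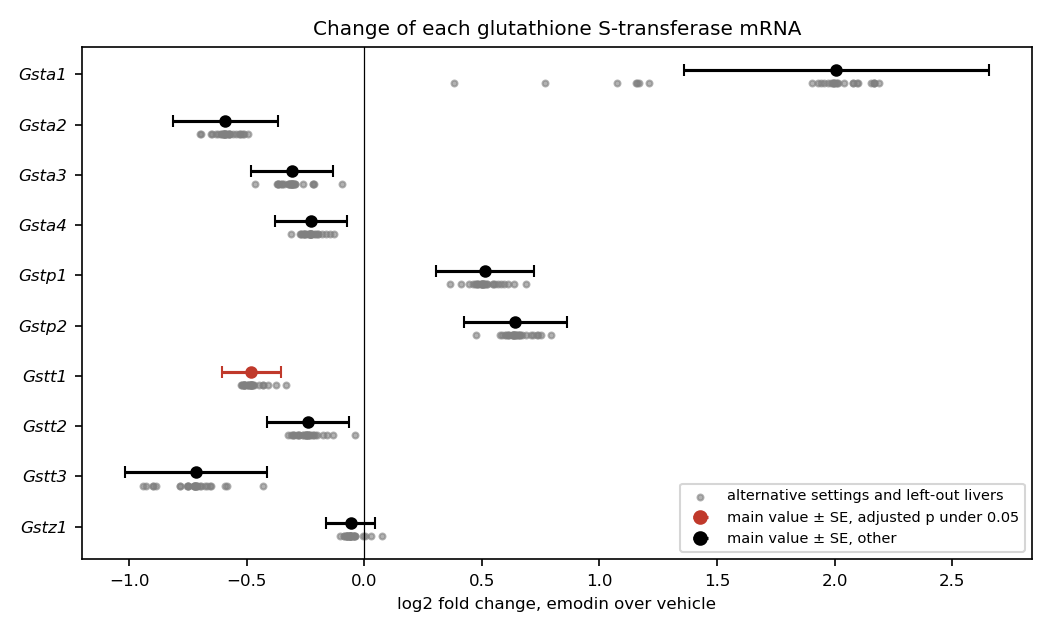
Log2 fold change of each GST mRNA, emodin over vehicle (horizontal axis), as estimated by edgeR with its SE (large points, red where the adjusted p is under 0.05), and its value in the alternative settings and with livers left out (small grey points). Gstt1 is the called gene at -0.48, and Gsta1 ranges from 0.38 to 2.19 across the alternatives drawn, which leave out the merged entries.

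Per kilobase of the longest coding transcript, the 10 genes spanned a wide range of levels. In vehicle livers the order was Gstp1 (1497 ± 448 CPM per kb), Gsta3 (1206 ± 139), Gstz1 (379 ± 19.7), Gstp2 (234 ± 75.7), Gstt1 (182 ± 17.8), Gsta2 (68.4 ± 21.4), Gsta4 (66.0 ± 11.5), Gstt3 (34.5 ± 7.47), Gstt2 (30.0 ± 3.84) and Gsta1 (14.0 ± 4.99). The neighbours Gstp1 and Gsta3, Gstp2 and Gstt1, Gsta2 and Gsta4, and Gstt3 and Gstt2 overlapped in range over the livers, and the other neighbours did not. With the union of all exons as the length, Gstz1 was the fifth, below Gstp2 and Gstt1, and Gsta2 and Gsta4 changed places. In emodin livers Gsta1 was seventh by the first length, at 56.2 ± 73.0 CPM per kb, but eighth without emodin liver 8 (32.3 CPM per kb) and last without emodin livers 4 and 8 (23.6 CPM per kb). Over all 8 livers Gstt3 was last, at 21.0 ± 11.5 CPM per kb. Summed, the 10 genes gave 4450 ± 1033 CPM in emodin livers and 4270 ± 478 CPM in vehicle livers. Gstp1 took 39.0 ± 6.43% of that sum with emodin and 28.4 ± 5.93% with vehicle, and Gsta3 took 31.6 ± 6.30% with emodin and 41.4 ± 4.96% with vehicle. Shares of a sum move together by construction, and no test was run on them.

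Beyond the group difference, several genes varied together from liver to liver. Correlations were taken over the 16 livers on log2 CPM after subtracting each group mean, with 100000 permutations within groups and adjustment over 45 pairs; 8 pairs passed on Pearson's r, 7 of them positive, and 4 passed on Spearman's rho as well; Gsta4 with Gstt3 passed on rho alone (0.71, permutation p = 0.00527, adjusted 0.0474; r = 0.68, permutation p = 0.0125, adjusted 0.0511). Gstp1 and Gstp2 were the closest (r = 0.96, rho = 0.91, both permutation p = 1e-05, the smallest these permutations can give, adjusted 0.00045), and r was 0.93 without the 2 livers farthest from the median. Gsta2 and Gsta4 followed each other in both groups (r = 0.85, permutation p = 3e-05, adjusted 0.000675; rho = 0.90, permutation p = 2e-05, adjusted 0.00045; r = 0.89 within each group, and 0.84 without the 2 farthest livers). Gsta3 and Gstz1 had r = 0.94 (permutation p = 0.00044, adjusted 0.0066) and rho = 0.81 (permutation p = 0.00089, adjusted 0.0133), with r = 0.78 without emodin livers 4 and 8. Gsta2 and Gstt3 had r = 0.63 and rho = 0.73 (permutation p = 0.00451 and 0.00154, adjusted 0.029 and 0.0173), and r was 0.49 without the 2 farthest livers. Gsta3 with Gstt3, Gstt2 with Gstt3 and Gsta3 with Gstt1 passed on r alone (0.87, 0.79 and 0.78), and without emodin livers 4 and 8 their r was 0.66, 0.51 and 0.43, the last resting largely on these livers.

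The negative pair that passed was Gsta1 and Gstz1, with r = -0.82 (permutation p = 0.00154, adjusted 0.0139) and rho = -0.70 (permutation p = 0.0121, adjusted 0.0679); r was -0.69 without emodin livers 3 and 8, the farthest, and -0.60 without emodin livers 4 and 8. Within the groups r was -0.91 over the 8 emodin livers and 0.21 over the 8 vehicle livers, a difference that was not tested. Gsta1 and Gsta2 had r = 0.06 over the 8 emodin livers and r = 0.84 over the 8 vehicle livers, again without a test. All these values share libraries and scaling factors, and for the pairs Gsta1 with Gsta2 and Gstp1 with Gstp2 they may also share reads.

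**Figure D4:**
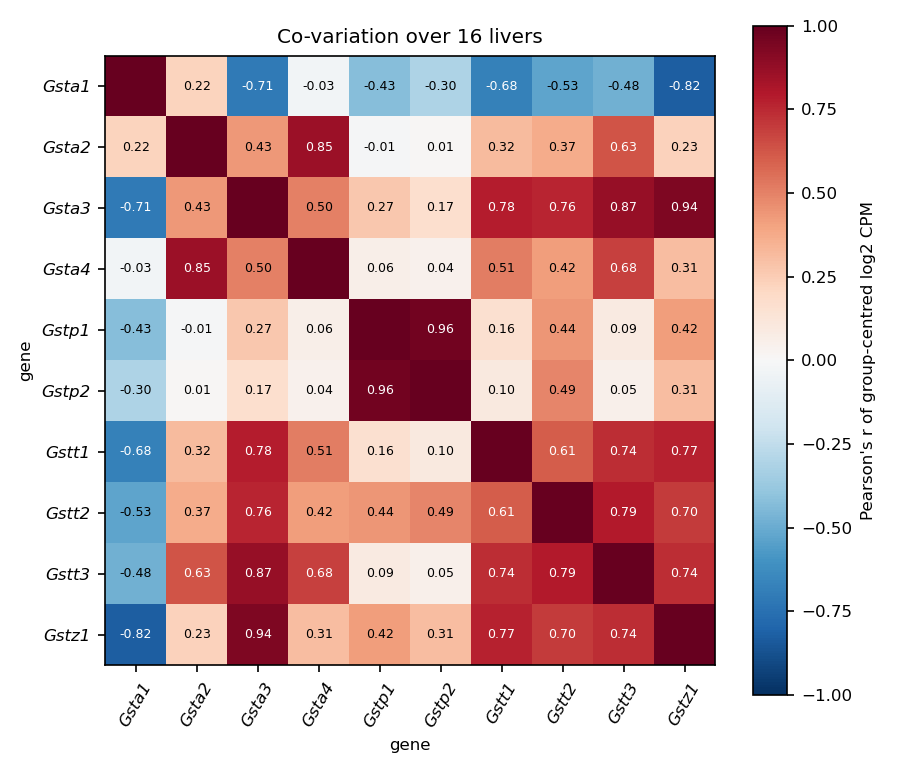
Pearson's r of log2 CPM between every pair of GST genes (both axes) over the 16 livers, after the mean of each group was subtracted; red is positive and blue negative. The darkest red cells join Gstp1 with Gstp2 (0.96) and Gsta3 with Gstz1 (0.94), and the darkest blue cell joins Gsta1 with Gstz1 (-0.82).

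Among 10649 annotated entries of at least 2 CPM, the 3 nearest in pattern to each member by the same r were as follows. For Gsta3 they were Pex7, Suox and Maob (r = 0.98, 0.97 and 0.96), for Gstz1 the urea cycle gene Otc, the urate oxidase gene Uox and Plpbp (0.98, 0.98 and 0.97), and for Gstt1 the mu-class transferase gene Gstm6 and the fructokinase gene Khk (0.92 and 0.89) with Slc25a5 (0.89). Gsta1 was nearest to Gm3776 and Gsta5, its near copies (0.97 and 0.94), and to Ccdc120 (0.94). Ccdc120 was called higher (log2 fold change 2.02, edgeR adjusted p = 0.0232). Its call ended in 5 of the alternative settings and without emodin liver 4 (edgeR adjusted p = 0.0503). Leaving out emodin livers 4 and 8 gave 1.12 (edgeR adjusted p = 0.106). Outside their own pairs, Gstp1 was nearest to Mup21 and Hmox2 (0.79 each), Gstp2 to Ubxn1 and Rogdi (0.85 and 0.81), Gsta2 to Sco1 and Mat2a (0.81 and 0.80) and Gsta4 to Fbxo33 and Ptprb (0.82 and 0.80). Gstt2 was nearest to Immp2l, Ttc36 and Tex264 (0.96, 0.94 and 0.94) and Gstt3 to Tcn2, Maob and Ube2r2 (0.92, 0.92 and 0.91). Such ranks describe these 16 livers and carry no test.

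The other GST classes gave 3 calls, all downward, where 7.7% of all tested entries were called higher and 5.47% lower. Of 14 tested genes of the mu, omega, kappa, microsomal and further groups, with Gstp3 counted among them, 0 were called higher and 3 lower, with a median log2 fold change of -0.13. The 3 were mu-class genes: Gstm6 (77.4 ± 19.01 CPM with emodin and 110 ± 7.02 CPM with vehicle, log2 fold change -0.50, edgeR adjusted p = 0.0181), Gstm4 (-0.33, adjusted p = 0.0285) and Gstm7 (-0.38, adjusted p = 0.0308). The calls of Gstm4 and Gstm7 ended without single livers (5 and 7 of the 16 omissions, adjusted p up to 0.0566 and 0.0584), and Gstm7 was not called without emodin livers 4 and 8 (-0.26, adjusted p = 0.0881). Gstm6 was called in all of these. Mu-class genes are close paralogues, so reads may be split between them.

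Genes that supply or consume glutathione are counted by list, where 7.7% of all tested entries were called higher and 5.47% lower. Of 17 tested genes of glutathione supply and thiol protection, 1 was called higher, Slc3a2 (log2 fold change 0.49, edgeR adjusted p = 0.0279). It encodes a heavy chain shared by the cystine transporter and other amino acid transporters. The cystine-specific light chain of this list did not pass the filter on low counts. The gene called lower was Glo1 (-0.49, edgeR adjusted p = 0.00923), a glyoxalase. Slc3a2 was not called without emodin liver 2 or 4, without vehicle liver 4 (adjusted p up to 0.0578) or without emodin livers 4 and 8 (0.35, adjusted p = 0.0885), and the higher count of this list lay between 0 and 2 over the alternatives. Gclc and Gclm, the subunits of the rate-limiting ligase of glutathione synthesis, had log2 fold changes of 0.18 (adjusted p = 0.565) and -0.17 (adjusted p = 0.114). Of 20 tested genes listed for mercapturates, export and glutathione turnover, 2 rose. These were Ggt6 of the gamma-glutamyltransferase family (0.63, edgeR adjusted p = 0.00809) and the oxoprolinase gene Oplah (0.44, edgeR adjusted p = 0.0205). Chac2, which degrades cytosolic glutathione, fell (-0.36, edgeR adjusted p = 0.0197), and the other 17 were not called. The canalicular export pump gene Abcc2 averaged 549 ± 115 CPM with emodin and 669 ± 96.4 CPM with vehicle (adjusted p = 0.16). Of 9 genes of tyrosine breakdown and its cofactor, the pathway of Gstz1, 0 were called higher and 1 lower, Qdpr, which regenerates tetrahydrobiopterin (-0.51, adjusted p = 0.0178); the enzymes just before and after Gstz1, Hgd and Fah, had log2 fold changes of -0.05 (adjusted p = 0.813) and -0.02 (adjusted p = 0.936).

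Of 24 tested NRF2 targets, 3 rose and 1 fell, where 7.7% of all tested entries were called higher and 5.47% lower. The median log2 fold change of these targets was 0.12. The risen genes were Cbr3 (1.83, edgeR adjusted p = 0.00886), a carbonyl reductase, Osgin1 (1.63, adjusted p = 0.0114) and Srxn1 (1.76, adjusted p = 0.0146), the sulfiredoxin that repairs peroxiredoxins; Me1, an NADPH-making malic enzyme, fell (-0.78, adjusted p = 0.0077). The number called higher lay between 1 and 7 over the alternatives. Cbr3 was low, at 1.45 ± 1.08 CPM with emodin and 0.405 ± 0.1485 CPM with vehicle. Nqo1, the quinone reductase often read as a marker of this response, had a log2 fold change of 0.37 (adjusted p = 0.0857). Srxn1 had 34.05, 87.1, 27.6, 161, 140.5, 41.5, 32.1 and 235 CPM in emodin livers 1 to 8, against 25.9 to 30.2 CPM in vehicle livers. The acute phase gene Saa1 had 61.4, 4254, 72.0, 3218, 1166, 192, 395 and 2378 CPM in emodin livers 1 to 8, against 23.4 to 66.7 CPM in vehicle livers. For Srxn1, Saa1, Gm3776 and Gsta1 alike, livers 2, 4, 5 and 8 were the highest 4 of the emodin group. The same livers were the highest for Osgin1 and for the acute phase gene Lcn2, so this order is not particular to Gsta1. All 13 acute phase genes of the list rose (median log2 fold change 1.58), 7 to 13 of them over the alternatives and 11 without emodin livers 4 and 8. Whether Gsta1 follows any of these genes was not tested.

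For the lists of this paragraph too, 7.7% of all tested entries were called higher and 5.47% lower. Of 20 tested regulators of GST genes, 4 rose and 1 fell. Among those that rose were Nr1i2, which encodes PXR (0.50, edgeR adjusted p = 0.00827), Arnt, the partner of AhR (0.45, adjusted p = 0.0101), and Mafg, a partner of NRF2 (0.37, adjusted p = 0.0147). Bcl6, a repressor linked to sex-biased liver genes, fell (-2.25, adjusted p = 0.000167). Nfe2l2, which encodes NRF2, averaged 88.7 ± 58.5 CPM with emodin and 76.2 ± 8.34 CPM with vehicle (adjusted p = 0.595), and Ahr 59.8 ± 9.45 CPM with emodin and 61.2 ± 15.3 CPM with vehicle (adjusted p = 0.905). Of 15 AhR, CAR and PXR targets, 3 rose, Cyp3a13 (0.82, adjusted p = 0.00203), Por (0.97, adjusted p = 0.00536) and Tiparp (0.67, adjusted p = 0.0145), and 0 were called lower (1 in some alternatives). Among 17 sex-biased liver genes, 1 rose (C6, 0.66, adjusted p = 0.0224) and 2 fell (Elovl3, -1.31, adjusted p = 0.011, and Nudt7, -0.69, adjusted p = 0.0461). Over the alternatives 0 or 1 were called higher and 1 to 3 lower; without emodin livers 4 and 8 neither C6 (adjusted p = 0.0619) nor Nudt7 (0.122) was called, and Nudt7 was also lost in 9 of 16 single-liver omissions (adjusted p up to 0.0886).

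**Figure D5:**
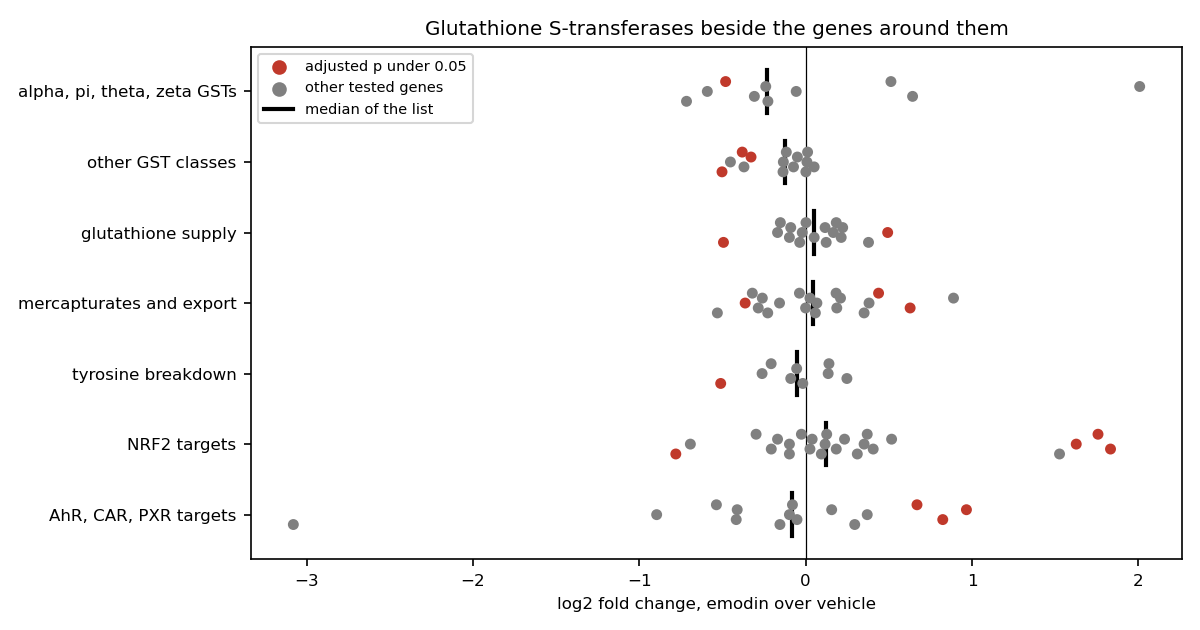
Log2 fold change, emodin over vehicle (horizontal axis), of every tested gene in the GST set and in 6 lists around it (rows); red points have an edgeR adjusted p under 0.05, and the black bar is the median of the list. The GST set has its median at -0.23 with 1 red point, and the NRF2 targets have 3 red points to the right and 1 to the left.

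Genes next to the members moved in both directions. Within 200 kb of the 10 genes, 51 of 80 listed neighbours were tested. Of these, 8 were called higher and 2 lower (6 to 11 and 2 to 3 over the alternatives), with a median log2 fold change of 0.13. Over all tested entries 7.7% were called higher and 5.47% lower. Around the pi genes on chromosome 19 the calls were Tcirg1 (log2 fold change 1.01, edgeR adjusted p = 0.00154), Clcf1 (1.55, adjusted p = 0.00886), Pitpnm1 (0.61, adjusted p = 0.0108) and Pold4 (0.40, adjusted p = 0.016, and 0.0504 without emodin livers 4 and 8), all higher. The other tested neighbours of the pi genes were not called. Clcf1 was low, at 1.935 ± 1.139 CPM with emodin and 0.661 ± 0.244 CPM with vehicle. Next to Gstz1, Cipc (0.38, adjusted p = 0.00401) and the overlapping Pomt2 (0.25, adjusted p = 0.0324; up to 0.0596 with single livers left out, 8 of 16 ending the call) rose, and Noxred1 (-1.32, adjusted p = 0.00803) fell, at 0.398 ± 0.189 CPM with emodin and 0.996 ± 0.243 CPM with vehicle. Near Gsta3, Tram2 rose (0.35, edgeR adjusted p = 0.00797). Near the alpha cluster on chromosome 9 the fatty acid elongase gene Elovl5 fell, with 229 ± 60.4 CPM in emodin livers and 492 ± 69.3 CPM in vehicle livers (-1.11, edgeR adjusted p = 0.000399). The remaining call there was Gm3776, higher but resting on few livers. In the theta cluster, Ddt, 701 bases from Gstt3, had a log2 fold change of -0.19 (adjusted p = 0.258) and Mif one of 0.20 (adjusted p = 0.418).

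Markers of other cells were checked as whole lists, where 7.7% of all tested entries were called higher and 5.47% lower. Summed markers of cholangiocytes spanned 41.1 to 190 CPM in emodin livers and 46.7 to 78.0 CPM in vehicle livers, and 0 of 9 tested genes were called by edgeR (1 at an unadjusted p under 0.05). Kupffer cell markers spanned 272 to 729 CPM with emodin and 184 to 828 CPM with vehicle (0 of 11 called, 1 at an unadjusted p under 0.05). Lymphocyte markers summed to 3.08 to 6.58 CPM with emodin and 5.88 to 15.7 CPM with vehicle, with 1 of 10 called lower and 5 at an unadjusted p under 0.05; all 10 log2 fold changes were below 0, with a median of -0.88. Pericentral hepatocyte markers spanned 4501 to 13570 CPM with emodin and 9361 to 12970 CPM with vehicle (1 of 10 lower, 1 at an unadjusted p under 0.05), and periportal ones 5569 to 12270 CPM with emodin and 7930 to 10610 CPM with vehicle (1 of 9 higher and 1 lower, 2 at an unadjusted p under 0.05). Sinusoidal endothelial markers spanned 163 to 258 CPM with emodin and 181 to 286 CPM with vehicle (1 of 8 lower, 4 at an unadjusted p under 0.05), and stellate cell markers 155 to 303 CPM with emodin and 194 to 444 CPM with vehicle (0 of 10 called by edgeR, 1 at an unadjusted p under 0.05). Markers of pancreas, gut, kidney and fat summed to 5.72 to 15.9 CPM with emodin and 10.5 to 19.1 CPM with vehicle, with 3 of 11 at 0 in all libraries. Neutrophil markers summed to 0.515 to 5.47 CPM with emodin and 0.0621 to 2.775 CPM with vehicle. Of 8 listed, 2 were tested and 0 called by edgeR. Erythroid markers spanned 186.6 to 437.5 CPM with emodin and 232.3 to 767.1 CPM with vehicle (0 of 5 called by edgeR). The part of cell composition in the GST values was not tested.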

How the data were processed

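Liver RNA was sequenced in 16 libraries, from 1 µg of total RNA each, per the labels' protocols. Per the submitters' processing notes, the tools were Cufflinks 2.2.1, HTSeq 0.6.1, SAMtools 0.1.19, HISAT2 and cutadapt 1.9.1, on mm10; their roles are not given in the sources used here. The deposited values are estimated counts per entry, unscaled (0 values were not whole, so rounding changed nothing), although the table's name speaks of FPKM. Depth was 28.3 to 48.2 M estimated counts per library, and the counts carry no molecular identifiers. Precision was judged from the spread between libraries.

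The main test was that of edgeR 4.0.16, run in R 4.3.3 (filterByExpr, TMM, robust quasi-likelihood F test, group as the single term) with Benjamini-Hochberg adjustment over 14308 entries and a threshold of 0.05; SE is the absolute log2 fold change over the square root of F. Ratios within a class and co-variation used log2 CPM with a prior count of 2 and permutation tests. Alternatives used limma 3.58.1 and DESeq2 1.42.0, other scalings and filters, merged near-copies, a replicate block and each liver left out. The fits were tested on simulated data. Coordinates and transcripts come from GENCODE M21 (21779 of 21833 Ensembl entries matched), promoter windows from RefSeq; 8 of the 10 genes matched, Gsta4 and Gstt2 did not. The members and lists were chosen with earlier results of these data known. The text names all 10 members, in each list at most 4 called genes of smallest p (2 where 0 were called), the 3 nearest in pattern per member, the tested neighbours, the sex chromosome genes and Alb; Gclc, Gclm, Abcc2, Hgd, Fah, Nqo1, Nfe2l2, Ahr, Gstp3, Gm3776, Gsta5 and Saa1 fall outside this rule and were named after their values were seen. Gsta13 and Xist were listed and not analysed here, and 1 called regulator is not reported here.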

Additional observations from a re-analysis of the deposited data

Results flagged for a closer look

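In each group of 8 livers, the highest and the lowest value of each GST gene was compared with its nearest neighbour (gap over range, against Dixon's 95% critical value). Of 20 groups checked, 2 had a value past it, and chance gives about 1 in 20. Gsta1 was far higher in emodin liver 8, at 195.5 CPM, than in the next emodin liver (73.6 CPM); Gm3776, its near copy, was also highest there, at 141.5 CPM. Gstt1 was higher in vehicle liver 8, at 243.1 CPM, than in the next vehicle liver (206.7 CPM); without that liver its log2 fold change stayed within the range given for single livers left out.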

How the results depend on the processing

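Of the GST log2 fold changes, Gstt1, Gsta4 and Gstt2 kept their direction and their side of the threshold in all 30 alternative settings and single-liver omissions. With single livers left out, the count of members called higher ranged from 0 to 2 and of those called lower from 1 to 3 (most without emodin liver 7). Higher calls numbered 1 with quantile normalization, 2 with DESeq2 and 2 with array weights. Lower calls numbered 2 with quantile normalization, 2 with DESeq2 and 2 with the replicate block. Over all 14308 entries, higher and lower calls numbered 790 and 996 with quantile normalization, 1413 and 1119 with DESeq2, and 921 and 843 with array weights. With total counts, 0 members had all emodin livers below all vehicle livers, against 1 in the main comparison. Merging near-identical pairs turned Gsta2 to 0.31, the value of the summed pair with Gsta1. Gstz1 turned to 0.0292 with array weights, 0.001 without emodin liver 8 and 0.0739 without emodin livers 4 and 8. The log2 ratio of Gsta1 to Gsta2 kept its size but not its call under the replicate block (1.73, exact sign-flip permutation, adjusted p = 0.156, where a ratio that passes alone cannot go below 0.0781), and without emodin livers 4 and 8 it was 0.90; with single livers left out it ranged from 1.33 to 1.98. The ratio of Gsta3 to Gsta4, -0.12, turned to 0.007407 without emodin liver 8 and 0.04934 without emodin livers 4 and 8 (range with single livers left out -0.22 to 0.01). Ratios of Gstt2 to Gstt3 (0.50 to 0.75), Gsta2 to Gsta4 (-0.42 to -0.26) and Gstp1 to Gstp2 (-0.17 to -0.10) passed without emodin liver 7, vehicle liver 4 and emodin liver 1. Why these values moved was not tested.

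Replicate numbers share only a number: 1 of 8 same-numbered pairs had deviations correlated above 0.1, and 2 of 8 emodin livers matched their own number best. With the number as a block, all calls numbered 628 higher and 635 lower, against 1102 and 782 without it, and Gsta2 was called lower (-0.58, edgeR adjusted p = 0.0198). The merges with Gsta5 and Gm3776 and the fits without both emodin livers 4 and 8, and the omissions of livers for genes outside the 10, were chosen after seeing the data. The spread between livers and reads shared between near copies limit Gsta1, Gsta2, Gstp1 and Gstp2.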
